A study of Mus musculus with 2 samples.

Results

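The genes described here are the heat shock and chaperone genes of the mouse lateral hypothalamic area, taken by symbol. They comprise the HSP70, HSP90, HSP110, HSP60 and small heat shock protein families and the J proteins of the Dnaja, Dnajb and Dnajc classes. The symbol pattern matched 74 of the 28692 genes in the count tables, and the 65 with 20 or more unique molecular identifiers (UMIs, each counting 1 captured transcript) over both libraries were kept. By the place where their proteins are known to work, 32 were sorted to the cytosol and nucleus, 12 to the endoplasmic reticulum, 10 to the mitochondrion and 11 to a mixed remainder. The remainder holds Dnajc14 and Dnajc18, J proteins known from the reticulum membrane, which the counts of the reticulum set leave out. A symbol is not a function. Hspb11, a subunit of the transport machinery of cilia, and Hspbp1 and Hspbap1, which bind chaperones, are in the remainder by name alone.

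Chaperones hold unfolded or newly made proteins until they reach their folded state. HSP70 proteins bind and release their clients in a cycle driven by ATP, which J proteins start and nucleotide exchange factors such as the HSP110 proteins end, and HSP90 takes over clients that are nearly folded. The reticulum has its own set, led by Hspa5 (BiP) and Hsp90b1 (GRP94), which folds secreted and membrane proteins and is induced by the unfolded protein response. Neuropeptide precursors such as those of Hcrt (hypocretin, or orexin) and Pmch (melanin-concentrating hormone), both made in this region, are folded there.

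Cells came from lateral hypothalamic tissue cut out of brain slices of C57BL/6 mice at postnatal day 30, with no genetic or drug treatment named, and were sequenced with 10x Genomics Chromium version 2 chemistry. There were 2 libraries from 5 littermates: 1 labelled male, a pool of 3 animals, and 1 labelled female, a pool of 2. Wherever 2 values are joined by "and", the library labelled male comes first and the library labelled female second. The groups were Hcrt-high neurons (83 and 83 cells), Pmch-high neurons (85 and 61), inhibitory neurons (982 and 1106) and other excitatory neurons (602 and 686). Non-neuronal cells were mature oligodendrocyte-like (609 and 595), astrocyte-like (119 and 185), microglia-like (75 and 45) and endothelial-like (155 and 184), each set against all neuron-like cells (2040 and 2267). Newly formed oligodendrocyte-like cells (74 and 105), oligodendrocyte precursor-like cells (81 and 94) and fibroblast-like cells (23 and 33) were described without a test. Hcrt-high and Pmch-high neurons held 0.3% or more of their UMIs from that peptide gene, and inhibitory and excitatory neurons were told apart by a UMI of Slc32a1 or Slc17a6 without the other.

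The libraries held 23151801 and 27437142 UMIs in all, and 3190 and 3525 cells were kept. Xist, the X inactivation transcript of females, had 20641 UMIs in the library labelled male and 30 in the library labelled female, and the Y-linked Ddx3y had 0 and 4524, so the sex genes went against both labels. The labels are kept as names, and the tests below do not use which library is which. The libraries shared 18 cell barcodes. Levels are given as CPM, the UMIs of a gene scaled to a total of 1000000 UMIs in the group, and cannot tell fewer transcripts in every cell from fewer cells that hold them. A gene was called where edgeR's quasi-likelihood test over the 4 sums of a comparison, with the library as a block, gave an adjusted p under 0.05 over all genes tested. The test scales libraries by TMM, the trimmed mean of M-values. Where a group's UMIs pile up in a few genes, TMM moves all fold changes up against plain total-count scaling. Against neuron-like or other excitatory cells this shift was, on the log2 scale, 0.25 in Hcrt-high, 0.27 in Pmch-high, 0.72 in mature oligodendrocyte-like, 0.26 in microglia-like, 0.22 in endothelial-like and 0.15 in astrocyte-like cells. It was 0.00 for inhibitory neurons and -0.01 between Hcrt-high and Pmch-high neurons. A call named as holding under both scalings was made in 1 direction with either. Where TMM moves fold changes up, total-count scaling moves them down, which favours lower calls. Every gene called lower with TMM also held with total counts in Hcrt-high and Pmch-high neurons against other excitatory neurons. The same was true of mature oligodendrocyte-like, astrocyte-like and endothelial-like cells. Holding under both scalings therefore adds no support to a lower call there. Statements that sums did not overlap, or lay above those of the other group, describe genes already called. With 4 sums in a comparison, groups can also separate by chance. The share of all tested genes without overlap is not given, so such statements add no support to a call.

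Reticulum and cytosolic chaperones are known to be switched on through different DNA elements. Promoters of some members that hold a match to 1 of these elements are shown, and none without a match is. Each window runs from 250 bases before to 50 bases after the annotated start, from RefSeq on GRCm38.p6, and 53 of the 65 genes had 1 or more. Capitals mark matches to the ER stress element, searched on either strand as CCAAT, any 9 bases, then CCACG. It stood in 3 of the 11 reticulum genes with a window, Hspa5 (chr2:34771840-34772139, plus strand), Hsp90b1 (chr10:86705395-86705694, minus strand) and Dnajc3 (chr14:118937682-118937981, plus strand), and in 0.119% of all 32851 windows. The window of Hsp90b1 held 2 matches. Dnajc10, called higher below in Hcrt-high and in Pmch-high neurons, had a window without a match. Dnajc3, with a match, was not called in Hcrt-high neurons and was called with TMM alone in Pmch-high neurons. Whether the element bears on the levels below was not tested.
Hspa5: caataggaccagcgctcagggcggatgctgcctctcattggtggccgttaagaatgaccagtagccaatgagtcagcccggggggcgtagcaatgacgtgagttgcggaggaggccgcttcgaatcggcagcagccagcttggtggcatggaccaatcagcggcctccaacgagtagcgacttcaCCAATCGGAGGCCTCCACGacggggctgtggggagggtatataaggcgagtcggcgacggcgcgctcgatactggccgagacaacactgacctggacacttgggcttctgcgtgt
Hsp90b1: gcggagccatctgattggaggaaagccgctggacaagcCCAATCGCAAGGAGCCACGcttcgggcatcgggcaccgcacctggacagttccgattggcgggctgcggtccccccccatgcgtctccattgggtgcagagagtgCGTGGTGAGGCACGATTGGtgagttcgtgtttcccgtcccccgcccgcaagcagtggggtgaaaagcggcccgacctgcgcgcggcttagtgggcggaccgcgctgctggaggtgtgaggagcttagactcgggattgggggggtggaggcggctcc
Dnajc3: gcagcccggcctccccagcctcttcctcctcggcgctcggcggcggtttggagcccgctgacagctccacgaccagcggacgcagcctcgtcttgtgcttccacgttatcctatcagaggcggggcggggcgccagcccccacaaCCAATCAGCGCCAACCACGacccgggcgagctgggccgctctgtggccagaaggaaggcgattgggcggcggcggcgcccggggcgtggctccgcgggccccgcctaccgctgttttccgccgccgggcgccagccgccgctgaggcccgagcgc

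In the next pair of windows, capitals mark matches on either strand to GAA, any 2 bases, TTC, any 2 bases, then GAA, which are 3 units of the heat shock element to which heat shock factors bind. Such matches stood in windows of Hsph1 (chr5:149636266-149636565, minus strand), Hspe1 (chr1:55087898-55088197, plus strand), Hspd1 and Dnajb6, and in 0.603% of all windows. Hsph1 and Dnajb6 were 2 of the 26 cytosolic and nuclear genes with a window. Hspe1 and Hspd1 were 2 of the 7 mitochondrial ones. In the Hsph1 window shown, the match begins 15 bases after the annotated start. None of the 11 reticulum genes had one in its window, which says only that these letters are absent there. In Hspe1, 2 matches overlap, and the window that holds them overlaps one of Hspd1, its neighbour read in the opposite direction. A match is a description of the letters, not a measured site.
Hsph1: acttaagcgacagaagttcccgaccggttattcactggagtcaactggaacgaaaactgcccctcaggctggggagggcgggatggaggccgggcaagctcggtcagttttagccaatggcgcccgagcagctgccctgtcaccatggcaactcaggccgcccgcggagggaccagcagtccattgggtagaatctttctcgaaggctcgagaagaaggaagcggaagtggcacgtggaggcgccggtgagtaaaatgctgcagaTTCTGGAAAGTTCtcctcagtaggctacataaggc
Hspe1: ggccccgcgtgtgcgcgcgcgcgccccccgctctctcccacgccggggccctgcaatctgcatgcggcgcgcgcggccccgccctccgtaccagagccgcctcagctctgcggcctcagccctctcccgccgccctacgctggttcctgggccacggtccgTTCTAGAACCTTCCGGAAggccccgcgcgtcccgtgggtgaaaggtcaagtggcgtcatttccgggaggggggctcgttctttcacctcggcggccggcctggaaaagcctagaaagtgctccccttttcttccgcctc

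The 32 cytosolic and nuclear genes summed to 2444 and 2609 CPM in astrocyte-like, 3012 and 3294 CPM in mature oligodendrocyte-like and 3291 and 4096 CPM in microglia-like cells, against 5714 and 5495 CPM in neuron-like cells. These sums are levels on the total-count scale, to which the most abundant genes add most, and the calls by gene are given with each class. The 12 reticulum genes summed to 1384 and 1327 CPM in fibroblast-like cells, 592 and 590 CPM in mature oligodendrocyte-like cells, the least of any class, and 1371 and 1285 CPM in neuron-like cells. The summed level of the 10 mitochondrial genes lay between 594 CPM in endothelial-like and 1195 CPM in inhibitory sums.

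**Figure D1:**
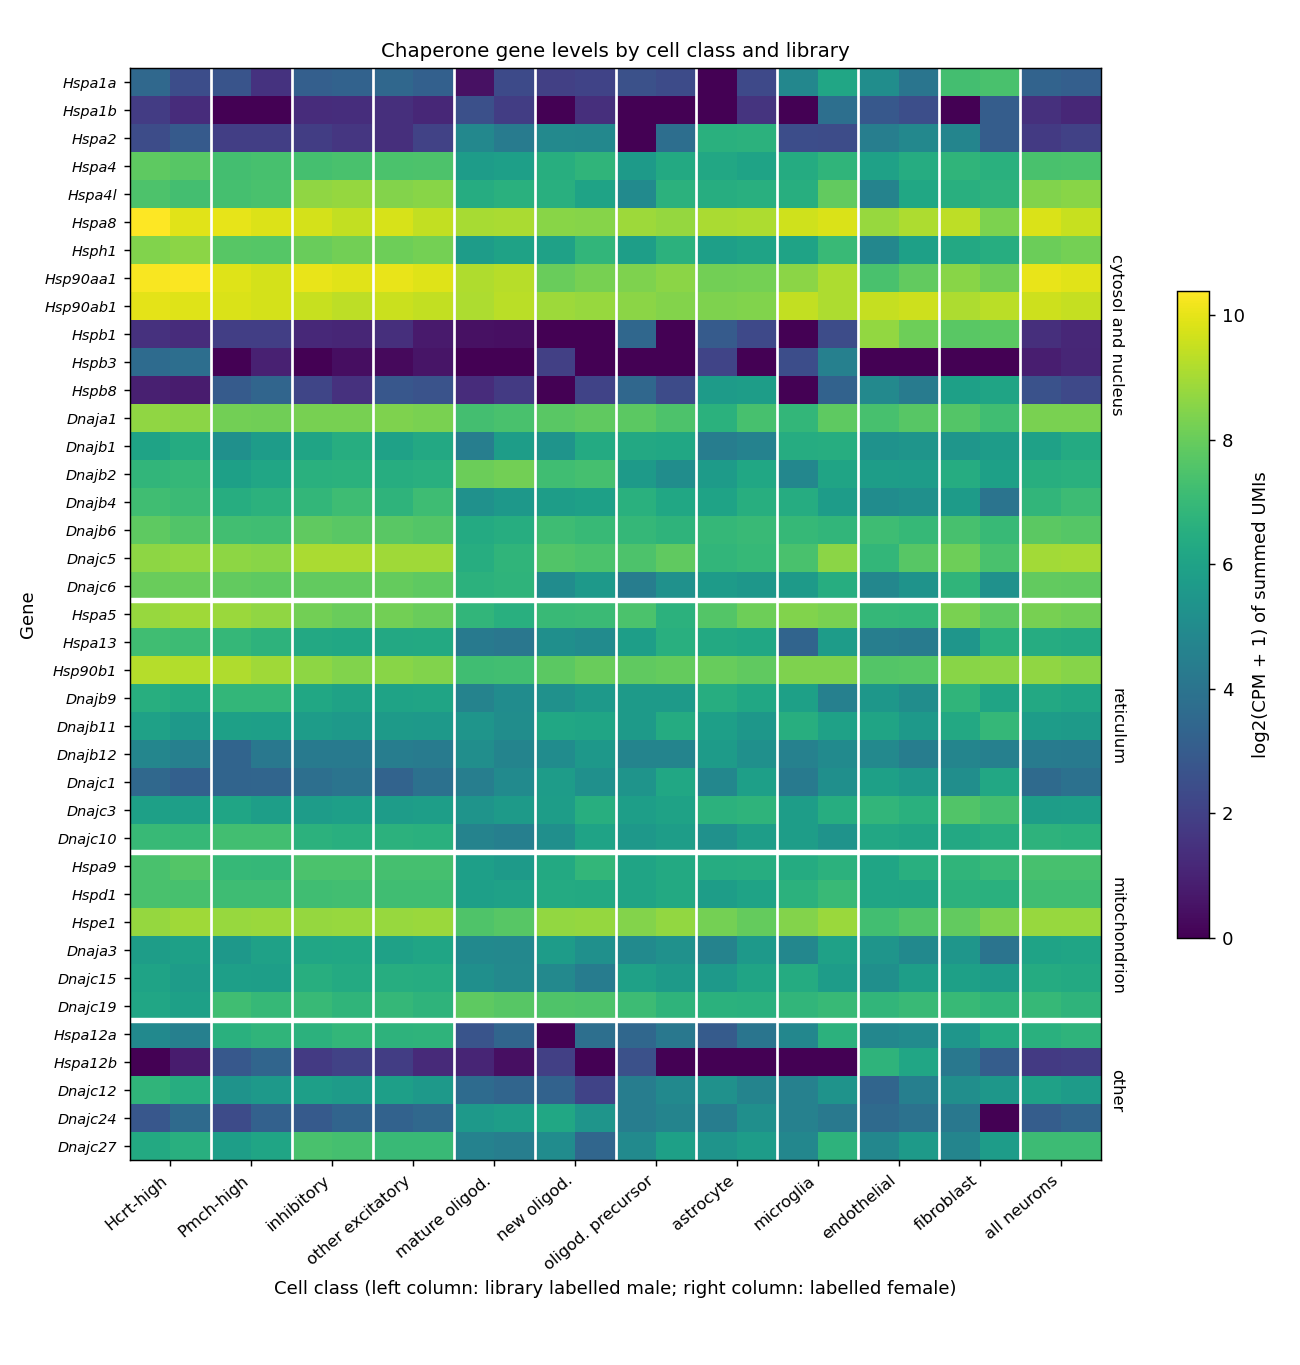
Level of 39 chaperone genes (rows, by compartment) in 12 cell classes (columns, each split into the library labelled male on the left and the library labelled female on the right), as log2(CPM + 1) of summed UMIs. Hspa8, Hsp90aa1 and Hsp90ab1 are bright in every class, while Hspb1 and Hspa12b are brightest in endothelial-like cells and Hspa2 in astrocyte-like cells.

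Hcrt-high neurons had more of the main reticulum chaperones than other excitatory neurons. Hsp90b1, the HSP90 of the reticulum (ENSMUSG00000020048, chr10:86690209-86705509, minus strand), had 595 and 581 CPM in Hcrt-high neurons, against 368 and 339 CPM in other excitatory neurons (log2 fold change 0.99 ± 0.11 (SE), adjusted p = 9.09e-18). Hspa5, the reticulum HSP70 (ENSMUSG00000026864, chr2:34771970-34777547, plus strand), had 439 and 477 CPM, against 288 and 261 CPM (log2 fold change 0.99 ± 0.11 (SE), adjusted p = 5.39e-19). Hspa13, a small HSP70-like protein of microsomes (ENSMUSG00000032932, chr16:75745431-75767104, minus strand), had 146 and 137 CPM, against 77 and 78.6 CPM (log2 fold change 1.11 ± 0.12 (SE), adjusted p = 7.95e-20). In each of these 3 genes both Hcrt-high sums lay above both sums of other excitatory neurons.

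Among the J proteins of the reticulum, Dnajb9, which is known to act on Hspa5 and on the stress sensor Ern1, had 89.5 and 81.9 CPM, against 64.3 and 66.7 CPM in the same neurons (log2 fold change 0.63 ± 0.13 (SE), adjusted p = 1.25e-05). Dnajc10, which also reduces disulfide bonds, had 128 and 122 CPM, against 102 and 96.2 CPM (log2 fold change 0.59 ± 0.12 (SE), adjusted p = 4.85e-06). Both genes had no overlap between the groups. Dnajb11, a cochaperone of Hspa5 in the lumen, and Dnajb12, a membrane J protein, were called higher with TMM (0.40 and 0.54) but not with total-count scaling (0.15 and 0.28). Dnajc3, which is known to damp signalling of the reticulum kinase Eif2ak3, and Dnajc1, which sits at the translocon, were not called, with log2 fold changes of 0.35 and -0.06. In all, 7 of 12 reticulum genes were called higher and none lower, and 5 were called higher under both scalings. Over all 11827 genes tested, 41.2% were called, 21.4% higher and 19.8% lower, and 12.1% were higher under both scalings. The median log2 fold change was 0.47 over the reticulum genes and -0.01 over all genes. With DESeq2, 3 of the 12 were called higher (Hspa13, Hspa5 and Hsp90b1), against 877 of 18002 genes.

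The constitutive cytosolic chaperones were higher as well. Hspa8, the HSP70 that is always made, had 1344 and 983 CPM in Hcrt-high neurons, against 857 and 703 CPM in other excitatory neurons (log2 fold change 0.82 ± 0.12 (SE), adjusted p = 1.63e-10). Hsp90ab1, the constitutive HSP90, had 1011 and 958 CPM, against 748 and 701 CPM (log2 fold change 0.69 ± 0.12 (SE), adjusted p = 4.79e-08), and Hsp90aa1, its inducible sister, had 1269 and 1292 CPM, against 1057 and 955 CPM (log2 fold change 0.60 ± 0.12 (SE), adjusted p = 7.09e-06). The 4 sums of each gene did not overlap between the groups.

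Hsph1, an HSP110 exchange factor (ENSMUSG00000029657, chr5:149614287-149636376, minus strand), had 347 and 379.9 CPM, against 275 and 297 CPM in Hcrt-high against other excitatory neurons (log2 fold change 0.60 ± 0.11 (SE), adjusted p = 1.92e-07). Its relative Hspa4 (0.53) and the J proteins Dnaja1 (0.54) and Dnajb2 (0.60) were also called higher under both scalings. The third HSP110 gene went the other way: Hspa4l (ENSMUSG00000025757, chr3:40744495-40796103, plus strand) had 179.8 and 155 CPM, against 348 and 368 CPM (log2 fold change -0.85 ± 0.12 (SE), adjusted p = 2.02e-12). Dnajb1, the J protein most tied to the heat shock response, Dnajb4, Dnajb6 and Hspa2 were called higher with TMM alone (Dnajb1 (0.34), Dnajb4 (0.40), Dnajb6 (0.28) and Hspa2 (1.45)). Hspa1a, the strictly inducible HSP70, had 12 and 6 UMIs in Hcrt-high neurons, against 49 and 47 in other excitatory neurons, and was not called (-0.07). Dnajc5, the cysteine string protein of synaptic vesicles, was not called either (-0.02). Of the 29 cytosolic and nuclear genes tested, 13 were called higher and 4 lower, against 21.4% and 19.8% of all genes. Under both scalings 8 were higher and 4 lower, against 12.1% and 19.8%.

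Mitochondrial members were split. Hspa9, the HSP70 of the matrix, and the HSP60 pair Hspd1 and Hspe1 were called higher with TMM (Hspa9 (0.44), Hspd1 (0.43) and Hspe1 (0.28)) and not called with total-count scaling, where their log2 fold changes were 0.18, 0.18 and 0.03. Dnajc19, a J protein of the protein import motor (ENSMUSG00000027679, chr3:34056020-34081321, minus strand), had 70.2 and 59.8 CPM in Hcrt-high neurons, against 119 and 107 CPM in other excitatory neurons (log2 fold change -0.54 ± 0.13 (SE), adjusted p = 0.00027). Dnajc30 (-0.74), Dnajc4 (-0.74) and Dnajc15 (-0.34), a relative of Dnajc19, were also lower under both scalings. DESeq2 called none of the 10 mitochondrial genes in Hcrt-high neurons, and Dnajc15 stood at 0.059 with cells thinned to 3000 UMIs. Dnaja3 was not called (0.06).

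The sharpest differences of Hcrt-high neurons lay outside these compartments or in rare genes. Hspa12a, a distant HSP70 relative (ENSMUSG00000025092, chr19:58795750-58943654, minus strand), had 29.8 and 22.1 CPM in Hcrt-high neurons, against 105 and 109 CPM in other excitatory neurons (log2 fold change -1.81 ± 0.17 (SE), adjusted p = 7.17e-25). Dnajc12, known as a cochaperone of the aromatic amino acid hydroxylases (ENSMUSG00000036764, chr10:63382443-63410576, plus strand), had 111 and 87.8 CPM, against 57 and 48.9 CPM (log2 fold change 1.15 ± 0.13 (SE), adjusted p = 6.71e-17). The sums of each gene did not overlap between the groups.

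Hspb3, a small heat shock protein studied mainly in muscle (ENSMUSG00000051456, chr13:113662896-113663676, minus strand), had 13 and 17 UMIs in the 83 and 83 Hcrt-high neurons, against 1 and 3 UMIs in the 602 and 686 other excitatory neurons (log2 fold change 5.12 ± 0.64 (SE), adjusted p = 1.77e-14). Those UMIs came from 10 and 15 Hcrt-high cells, none with more than 2. The whole neuron-like class held 14 and 24 UMIs of this gene, so most of its counts in neurons lay in these few cells. Hspb3 had 48 UMIs over both libraries, and 30 of them lay in Hcrt-high neurons. Without those it would have fallen below the limit of 20 UMIs for members. It was thus kept as a member only through the group in which it is high. The counts of cytosolic and nuclear genes called higher in Hcrt-high neurons include it. Hspb8, a small heat shock protein that works with Bag3, went the other way, with 1 and 1 UMIs in Hcrt-high neurons against 30 and 31 in other excitatory neurons. The ratio of pooled Hspb8 levels was 0.141 (95% counting interval 0.0167 to 0.530), and counts so low carry no finer statement.

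In all, 36 of the 60 members tested were called in Hcrt-high neurons, 26 higher and 10 lower, against 41.2% of all genes. With total-count scaling 14 of the 60 were higher and 14 lower, against 1436 higher and 3996 lower of all 11827 genes. DESeq2 called 13 of 65, against 1553 of 18002 genes. Hcrt-high neurons were deeper (median 16101 and 18593 UMIs a cell) than other excitatory neurons (median 7833 and 8052.5). Thinning every cell to 3000 UMIs left 13 of 52 called, against 1567 of 9478 genes. Among cells of 10000 UMIs or more in both groups, 30 of 56 were called, against 3914 of 10412 genes.

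Pmch-high neurons, set against the same other excitatory neurons, had a like rise of reticulum chaperones. The comparisons share those control cells, so their values are given side by side and not as separate support. Dnajb9 (ENSMUSG00000014905, chr12:44205559-44210326, minus strand) had 116 and 116 CPM in Pmch-high neurons, against 64.3 and 66.7 CPM in other excitatory neurons (log2 fold change 1.09 ± 0.12 (SE), adjusted p = 8.66e-09). Hspa5 had 453 and 400.3 CPM, against 288 and 261 CPM (log2 fold change 0.90 ± 0.08 (SE), adjusted p = 2.14e-10), and Hsp90b1 had 569 and 478 CPM, against 368 and 339 CPM (log2 fold change 0.83 ± 0.08 (SE), adjusted p = 5.3e-10). In each of these genes both Pmch-high sums lay above both sums of other excitatory neurons.

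Dnajc10 had 149 and 153 CPM, against 102 and 96.2 CPM in Pmch-high and other excitatory neurons (log2 fold change 0.86 ± 0.10 (SE), adjusted p = 6.34e-08). Hspa13 followed with 121 and 105 CPM, against 77 and 78.6 CPM (log2 fold change 0.81 ± 0.11 (SE), adjusted p = 1.6e-06). Dnajb11 and Dnajc3 were called with TMM alone (Dnajb11 (0.52) and Dnajc3 (0.47)), and Dnajc1 was not called (0.01). Again 7 of the 12 reticulum genes were called higher and none lower, 5 of them under both scalings, with a median log2 fold change of 0.59. Over all 11797 genes tested, 36.4% were called, 19.3% higher and 17.0% lower, 10.7% were higher under both scalings, and the median was -0.03. DESeq2 called 5 of the 12 higher, against 917 of 18049 genes.

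**Figure D2:**
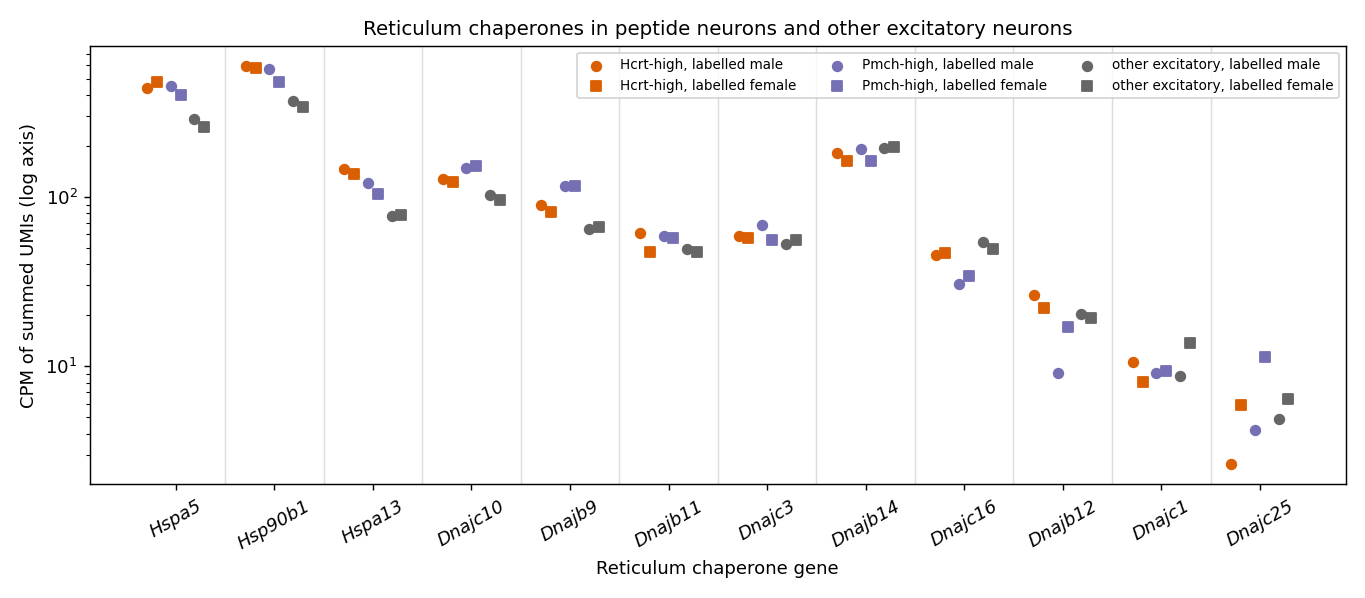
Level of the 12 reticulum chaperone genes in Hcrt-high, Pmch-high and other excitatory neurons, in CPM of summed UMIs on a log axis, 1 point per library (circle, labelled male; square, labelled female). For Hspa5, Hsp90b1, Hspa13, Dnajc10 and Dnajb9 all 4 peptide neuron sums lie above both sums of other excitatory neurons.

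Among the 27 cytosolic and nuclear genes tested, 4 were called higher and 6 lower in Pmch-high neurons, against 19.3% and 17.0% of all genes. Hspa8 (0.57) and Hsp90ab1 (0.52) were higher, and Dnaja4, a J protein of the cytosol, had 36.3 and 47.1 CPM in Pmch-high neurons, against 19.8 and 27.4 CPM in other excitatory neurons (log2 fold change 1.09 ± 0.19 (SE), adjusted p = 3.49e-05). DESeq2 did not call Dnaja4, and with cells thinned to 3000 UMIs its log2 fold change was -0.32. Hsp90aa1 had 943 and 854 CPM, against 1057 and 955 CPM, was not called with TMM (0.10) and was called lower with total-count scaling (-0.17). Lower under both scalings were Hsph1 (-0.24), Dnajb1 (-0.38), Dnajc7 (-0.41), the ribosome-linked Dnajc21 (-0.77), Dnajc9, a chaperone of histones (-0.98), and Hspa4l. The last had 159.7 and 169.5 CPM, against 348 and 368 CPM in Pmch-high and other excitatory neurons (log2 fold change -0.86 ± 0.09 (SE), adjusted p = 1.06e-08), without overlap. After thinning Dnajc9 stood at 0.11. With DESeq2, 2 cytosolic and nuclear genes were called higher and 1 lower, against 917 and 457 of 18049 genes. Not called were Hspa4 (0.12), Dnaja1 (0.08), Dnajb4 (-0.11), Dnajb6 (-0.19), Dnajc5 (-0.07), Hspb8 (0.75) and Hspa1a (-0.95).

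In the mitochondrial set, Dnajc19 had 146 and 125 CPM in Pmch-high neurons, against 119 and 107 CPM in other excitatory neurons (log2 fold change 0.54 ± 0.10 (SE), adjusted p = 0.000116), the opposite side of other excitatory neurons from Hcrt-high cells. Dnajc15 was lower (-0.36), and Hspe1 was called higher with TMM (0.27) but stood at -0.00 with total-count scaling. DESeq2 called none of the 10 mitochondrial genes here either. Hspd1, Hspa9 and Dnaja3 were not called (Hspd1 (0.22), Hspa9 (-0.13) and Dnaja3 (-0.02)). In the remainder, Dnajc27, a Rab-like GTPase with a J domain, had 55.1 and 67.8 CPM, against 131 and 131 CPM (log2 fold change -0.84 ± 0.13 (SE), adjusted p = 3.51e-06) and Dnajc14 was higher (0.86). Hspa12b, a distant HSP70 relative known from endothelium, had 9 and 10 UMIs in Pmch-high neurons against 13 and 8 in other excitatory neurons (log2 fold change 2.18 ± 0.54 (SE), adjusted p = 0.00209). DESeq2 called neither Dnajc14 nor Hspa12b. The exons of Dnajc14 overlap those of Sarnp on the same strand, and those of Dnajc19 overlap Fxr1 on the other strand, so reads of these pairs may not be told apart. Exons of Dnaja4 and Wdr61, and of Dnajc1 and Mllt10, also overlap on opposite strands. Over all compartments 23 of the 58 members tested were called, 15 higher and 8 lower, against 36.4% of all genes. With total-count scaling 33 of the 58 were called, 11 higher and 22 lower, against 1265 higher and 3762 lower of all 11797 genes. DESeq2 called 9 of 65, against 1374 of 18049 genes. The cells thinned to 3000 UMIs gave 5 of 53, against 580 of 9565 genes.

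**Figure D3:**
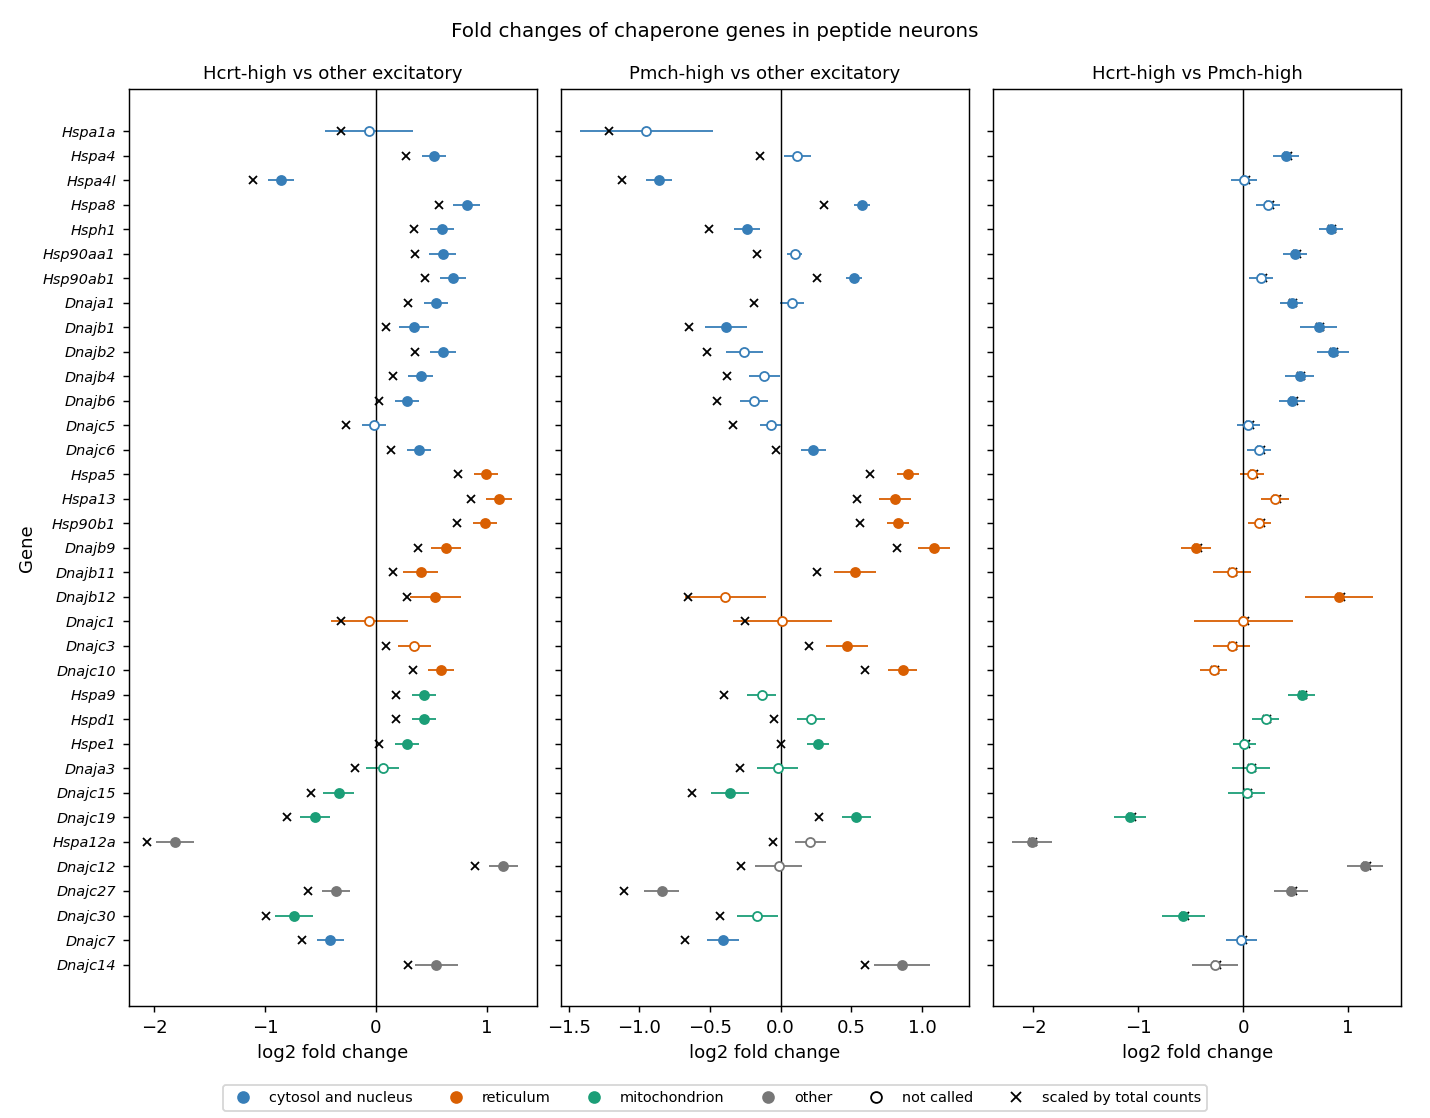
Log2 fold change of 35 chaperone genes (rows) in the 3 comparisons of peptide neurons, with bars of 1 SE. Filled circles were called, open circles were not, colours give the compartment, and crosses give the value with total-count scaling. Most reticulum genes lie right of 0 in the first 2 panels and nearer 0 in the third, where most called cytosolic genes lie on the right, higher in Hcrt-high neurons.

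Set directly against Pmch-high neurons, Hcrt-high neurons were higher in several cytosolic chaperones, while 9 of the 11 reticulum genes tested were not called. Hsph1 had 347 and 379.9 CPM in Hcrt-high neurons, against 204 and 198 CPM in Pmch-high neurons (log2 fold change 0.83 ± 0.11 (SE), adjusted p = 6.4e-12). Hsp90aa1 had 1269 and 1292 CPM, against 943 and 854 CPM (log2 fold change 0.50 ± 0.11 (SE), adjusted p = 8.67e-05) and Dnajb2, a J protein that hands clients to the proteasome (ENSMUSG00000026203, chr1:75236406-75245692, plus strand), had 114 and 119.5 CPM, against 58.6 and 69.7 CPM (log2 fold change 0.85 ± 0.15 (SE), adjusted p = 2.75e-07). For each of these the Hcrt-high sums lay above the Pmch-high sums in both libraries.

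Dnajb1 had 64.9 and 82.6 CPM, against 36.3 and 52.7 CPM in Hcrt-high and Pmch-high neurons (log2 fold change 0.72 ± 0.18 (SE), adjusted p = 0.000342). The cytosolic Hspa4, Dnaja1, Dnajb4 and Dnajb6 were called higher too (Hspa4 (0.41), Dnaja1 (0.46), Dnajb4 (0.54) and Dnajb6 (0.47)), and Hspa8, Hsp90ab1, Hspa4l and Dnajc5 were not called (Hspa8 (0.24), Hsp90ab1 (0.17), Hspa4l (0.01) and Dnajc5 (0.05)). Of the 26 cytosolic and nuclear genes tested, 10 were called higher and 1 lower, against 16.2% and 17.8% of all 9683 genes. The lower one was Dnaja4, with 22.8 and 22.1 CPM, against 36.3 and 47.1 CPM (log2 fold change -0.90 ± 0.24 (SE), adjusted p = 0.000998). Hspb3 had 13 and 17 UMIs in Hcrt-high neurons against 0 and 1 in Pmch-high neurons, a ratio of pooled levels of 30.002 (95% counting interval 4.99 to 1224). As stated above, Hspb3 is a member only through its UMIs in Hcrt-high neurons. Dnajc9, named after its values were seen, was called higher (1.08) on 40 and 23 UMIs against 12 and 18, a difference that rested on the library labelled male.

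Among the reticulum genes, 11 were tested, 1 was called higher and 1 lower, against 16.2% and 17.8% of all genes. Dnajb9 was lower, with 89.5 and 81.9 CPM in Hcrt-high neurons, against 116 and 116 CPM in Pmch-high neurons (log2 fold change -0.45 ± 0.15 (SE), adjusted p = 0.00818), and the rarer Dnajb12 was higher, with 26.3 and 22.1 CPM, against 9.07 and 17 CPM (log2 fold change 0.92 ± 0.33 (SE), adjusted p = 0.0183). Hspa5, Hsp90b1, Hspa13, Dnajc10, Dnajb11, Dnajc3 and Dnajc1 were not called (Hspa5 (0.08), Hsp90b1 (0.15), Hspa13 (0.31), Dnajc10 (-0.28), Dnajb11 (-0.11), Dnajc3 (-0.11) and Dnajc1 (0.00)), with SEs of 0.11 to 0.18 and of 0.47 for Dnajc1, which does not show that they are equal. Dnajc19 had 70.2 and 59.8 CPM, against 146 and 125 CPM (log2 fold change -1.08 ± 0.15 (SE), adjusted p = 8.75e-12), Dnajc30 was lower (-0.57) and Hspa9 higher (0.56). Hspd1, Hspe1, Dnaja3 and Dnajc15 were not called (Hspd1 (0.21), Hspe1 (0.01), Dnaja3 (0.07) and Dnajc15 (0.03)). Hspa12a had the largest difference on the lower side, with 29.8 and 22.1 CPM, against 96.9 and 110.2 CPM (log2 fold change -2.02 ± 0.19 (SE), adjusted p = 5.29e-25), and Dnajc12 was higher, with 111 and 87.8 CPM, against 39.8 and 49 CPM (log2 fold change 1.16 ± 0.17 (SE), adjusted p = 1.19e-10). In all 20 of 55 members were called, 15 higher and 5 lower, against 34.0% of all genes. DESeq2 called 4 of 65 (Hsp90aa1 and Hsph1 higher, Dnajc19 and Hspa12a lower), against 765 of 16121 genes.

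Early response genes moved with the cytosolic chaperones in this comparison. A list of 19 genes that rise within minutes of activity, and also during tissue dissociation, summed to 1043 and 1413 CPM in Hcrt-high neurons, 602 and 430 CPM in Pmch-high neurons and 728 and 702 CPM in other excitatory neurons. Of the 13 tested between the peptide neurons, 9 were called higher in Hcrt-high neurons and 2 lower, against 16.2% and 17.8% of all genes. Against other excitatory neurons, 9 of 16 were higher and 3 lower in Hcrt-high neurons (21.4% and 19.8% of all genes), 7 and 3 of them under both scalings, and 1 of 15 was higher and 8 lower in Pmch-high neurons (19.3% and 17.0% of all genes). Fos, the best known of them, had 184 and 451 CPM in Hcrt-high neurons, against 29.3 and 2.83 CPM in Pmch-high neurons (log2 fold change 4.01 ± 0.17 (SE), adjusted p = 3.66e-111). Their part in the chaperone differences was not tested.

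Inhibitory neurons differed little from other excitatory neurons. The largest called differences were in Dnajc27, with 169.9 and 158 CPM in inhibitory neurons, against 131 and 131 CPM in other excitatory neurons (log2 fold change 0.32 ± 0.05 (SE), adjusted p = 2.36e-08), and in Hspb8, with 28 and 17 UMIs (3.55 and 1.80 CPM) against 30 and 31 UMIs (6.12 and 5.34 CPM; log2 fold change -1.13 ± 0.31 (SE), adjusted p = 0.00314). Hspa4l had 402 and 427 CPM, against 348 and 368 CPM (log2 fold change 0.21 ± 0.03 (SE), adjusted p = 2.3e-08). In all 3 genes the groups did not overlap.

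Dnajc5 had 533 and 544 CPM, against 481 and 487 CPM in inhibitory and other excitatory neurons (log2 fold change 0.16 ± 0.03 (SE), adjusted p = 5.83e-06). Dnajb6, known to keep polyglutamine proteins from aggregating, was higher (0.13), and Dnajc11 was called higher with TMM alone (0.22). The other core genes of the cytosol ranged between -0.12 (Hspa1a) and 0.15 (Hspa1b and Dnajb1), and none was called. Among the reticulum genes, Dnajc1 had 0.30 and the others named lay between -0.08 (Hspa13) and 0.07 (Dnajb11). All 10 mitochondrial genes lay between -0.22 (Dnajc4) and 0.32 (Dnajc28). Of the 62 members tested, 6 were called, 5 higher and 1 lower, against 14.8% of all 12987 genes, 7.15% higher and 7.61% lower. Under both scalings 4 were higher and 1 lower, against 6.22% and 6.75% of all genes. DESeq2, the fit without the block and the fit with no filter on low counts called none of them. Over all genes these fits called 272 of 18901, 349 of 12987 and 241 of 18901. At an unadjusted p under 0.05 these fits gave 3, 3 and 11 members and edgeR with the block gave 15.

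With the peptide neurons left in, Hsp90b1 was called lower in inhibitory neurons at a log2 fold change of -0.19, and Dnajb9 at -0.18, so which excitatory cells enter decides those calls.

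Over the 14 neuron-like clusters, which were formed without the chaperone genes, those led by Nts, Hcrt and Tac2 were high on both the reticulum and the cytosolic sum, and the one led by Pmch was high on the reticulum sum and low on the cytosolic one. The cluster led by Nts and Crh had the highest reticulum sum, 1910 and 1762 CPM, followed by those led by Hcrt (1770 and 1724 CPM) and Pmch (1740 and 1545 CPM). The cytosolic sum was 5990 and 5893 CPM in the Nts cluster, 6495 and 6107 CPM in the Hcrt cluster and 5102 and 4979 CPM in the Pmch cluster. Lowest on both was the cluster led by Ebf1 and Npy, with 1044 and 1049 CPM for the reticulum and 4783 and 4697 CPM for the cytosol. The cluster led by Tac2 had the highest cytosolic sum, 6579 and 6597 CPM, with 1574 and 1346 CPM for the reticulum. Some levels of the Hcrt cluster recurred elsewhere. Dnajc12 had 104 and 87.1 CPM there and 104 and 54.6 CPM in the Ebf1 cluster, and Hspa4l 183 and 160 CPM against 186 and 213 CPM. Hspb8 had 0.80 and 0.69 CPM in the Hcrt cluster and 0.98 and 0.43 CPM in the one led by Gal. Hspa12a was lowest (30.4 and 23.3 CPM) and Hspb3 highest (10.4 and 12.4 CPM) in the Hcrt cluster. These are levels, not tests.

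**Figure D4:**
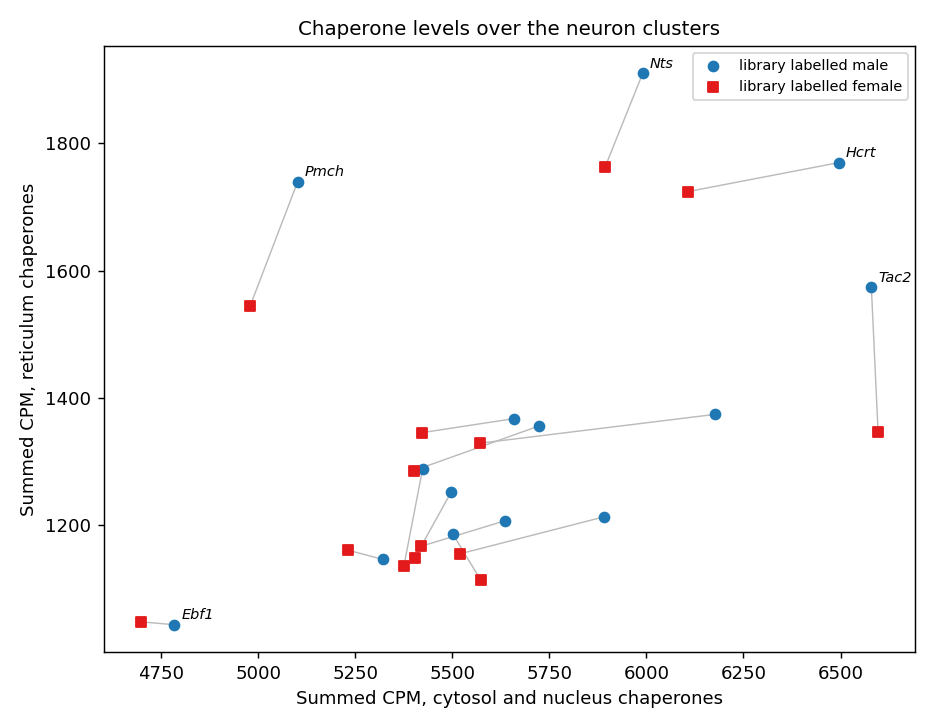
Summed CPM of the 12 reticulum genes (vertical) against that of the 32 cytosolic and nuclear genes (horizontal) in each of 14 neuron-like clusters, with a line joining the libraries of a cluster (circle, labelled male; square, labelled female) and 5 clusters labelled by their leading gene. Within each library the Nts, Hcrt and Pmch clusters lie highest, the Pmch cluster at the left and the Hcrt cluster at the right.

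In mature oligodendrocyte-like cells, the myelin-forming cells, 45 of 64 members were called against neuron-like cells, 18 higher and 27 lower. Over all 13727 genes 73.3% were called in this comparison, 34.2% higher and 39.1% lower. This and the next 3 comparisons share the same neuron-like cells, so their values are given side by side. Dnajb2 had 266 and 286 CPM in mature oligodendrocyte-like cells, against 91.3 and 96.7 CPM in neuron-like cells (log2 fold change 2.27 ± 0.06 (SE), adjusted p = 8.17e-39). Hspa2, an HSP70 best known from male germ cells (ENSMUSG00000059970, chr12:76404176-76406938, plus strand), had 28 and 19.3 CPM, against 2.37 and 3.01 CPM (log2 fold change 3.82 ± 0.23 (SE), adjusted p = 2.09e-22). Dnajc24, which acts in making diphthamide on elongation factor 2, had 48.6 and 53.8 CPM, against 7.47 and 9.48 CPM (log2 fold change 3.31 ± 0.15 (SE), adjusted p = 2.48e-28). No group overlapped in these genes.

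Dnajc19 had 224 and 208 CPM, against 122 and 107 CPM in mature oligodendrocyte-like and neuron-like cells (log2 fold change 1.63 ± 0.08 (SE), adjusted p = 1.02e-27) and Dnajc1 had 20.6 and 30.5 CPM, against 11.1 and 13.8 CPM (log2 fold change 1.75 ± 0.17 (SE), adjusted p = 1.26e-13). Hspa1b, a near-identical copy of Hspa1a whose reads may be split with it, rested on 13 and 8 UMIs (2.03), and Hspa1a was called lower on 1 and 12 UMIs against 154 and 157 (-1.14). Against this, the reticulum chaperones that were high in peptide neurons were low here. Hsp90b1 had 145 and 151 CPM, against 411 and 365 CPM (log2 fold change -0.67 ± 0.07 (SE), adjusted p = 2.01e-13), Hspa5 had 114 and 94.1 CPM, against 309 and 283 CPM (log2 fold change -0.80 ± 0.07 (SE), adjusted p = 5.33e-15) and Hspa13 had 18 and 16.6 CPM, against 84.5 and 80.7 CPM (log2 fold change -1.54 ± 0.14 (SE), adjusted p = 7.33e-15). Dnajc10 (-1.46) and Dnajb9 (-0.63) were lower as well.

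Other members were much lower in mature oligodendrocyte-like cells. Hspa12a had 5.52 and 9.48 CPM in mature oligodendrocyte-like cells, against 94.9 and 106 CPM in neuron-like cells (log2 fold change -3.01 ± 0.17 (SE), adjusted p = 9.77e-24), Dnajc5 had 87.9 and 111 CPM, against 493 and 502 CPM (log2 fold change -1.60 ± 0.07 (SE), adjusted p = 2.78e-28) and Hsph1 had 51.9 and 63 CPM, against 262 and 295 CPM (log2 fold change -1.56 ± 0.09 (SE), adjusted p = 1.01e-22). Also called lower were Dnajc27 (-1.93), Dnajc12 (-1.71), Hspa4l (-1.26), Hspa4 (-0.90), Hspa9 (-0.90), Dnajb4 (-0.89), Dnajb6 (-0.59), Dnajc15 (-0.63), Hspd1 (-0.62), Dnaja3 (-0.50), Hspe1 (-0.45) and Dnaja1 (-0.24). Not called with TMM were Hspa8 (0.10), Hsp90aa1 (-0.06), Dnajb1 (-0.19), Hspb8 (-0.51) and Hspb1 (-1.27). Hspa8 stood at -0.62 with total-count scaling. Hsp90ab1, Dnajb11 and Dnajc3 were called higher with TMM (Hsp90ab1 (0.39), Dnajb11 (0.28) and Dnajc3 (0.44)) and lower with total-count scaling (-0.33, -0.44 and -0.28), so no direction is given for them.

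In all, 45 of 64 members were called in mature oligodendrocyte-like cells, 18 higher and 27 lower, against 73.3% of all 13727 genes, 34.2% higher and 39.1% lower, and the median log2 fold change was -0.24 for members and -0.11 for all genes. With total-count scaling 9 were higher and 50 lower, against 2688 higher and 8511 lower of all 13727 genes. Under both scalings 9 and 27 held, against 19.6% and 39.1% of all genes. Hspb2, a partner of Hspb3 in muscle (ENSMUSG00000038086, chr9:50751078-50752354, minus strand), had 9 and 9 UMIs in these cells against 0 and 2 in neuron-like cells, a ratio of pooled levels of 59.5 (95% counting interval 14.3 to 529). Its exons overlap those of Cryab on the other strand, which had 25307 UMIs in all and 3602 and 3726 CPM in mature oligodendrocyte-like cells, against 24.6 and 30.7 CPM in neuron-like cells, and the sources used here do not say whether counting used strand. Dnajc7 overlaps Cnp, a myelin gene with 31839 UMIs, in the same way.

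Astrocyte-like cells had more Hspa2 and Hspb8 than neuron-like cells. Hspa2 had 95.5 and 100.2 CPM in astrocyte-like cells, against 2.37 and 3.01 CPM in neuron-like cells (log2 fold change 5.32 ± 0.34 (SE), adjusted p = 1.21e-53), the highest level of this gene in any class. Hspb8 had 51.1 and 54 CPM, against 5.21 and 3.95 CPM (log2 fold change 3.72 ± 0.39 (SE), adjusted p = 1.6e-20), and was at 59.8 and 66.7 CPM in fibroblast-like cells. Both genes were also called higher in endothelial-like cells. Bag3, its cochaperone outside the members, had 34.1 and 40.5 CPM in astrocyte-like cells, against 1.51 and 0.938 CPM in neuron-like cells (log2 fold change 5.16 ± 0.52 (SE), adjusted p = 1.04e-21). All 3 genes had no overlap.

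Part of the reticulum set was higher in astrocyte-like cells: Dnajc3 had 102 and 106 CPM, against 54.2 and 55.8 CPM (log2 fold change 1.08 ± 0.20 (SE), adjusted p = 2e-07), Dnajc1 had 27.3 and 57.8 CPM, against 11.1 and 13.8 CPM (log2 fold change 2.00 ± 0.34 (SE), adjusted p = 3.59e-08) and Dnajb12 was at 1.33. Dnajc24 was higher too (1.91). Hsp90b1 (-0.53) and Dnajc10 (-0.92) were lower, although Hsp90b1 stood at 0.018 under a stricter cell filter (1000 genes, 10% mitochondrial UMIs). Hspa5, Hspa13, Dnajb9 and Dnajb11 were not called (Hspa5 (-0.13), Hspa13 (0.01), Dnajb9 (0.30) and Dnajb11 (0.14)). The reticulum thus gave 3 genes higher and 4 lower of 12, against 20.9% and 25.2% of all genes.

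Of the 31 cytosolic and nuclear genes tested in astrocyte-like cells, 18 were called lower and 2 higher. Hsp90aa1 had 293 and 299 CPM in astrocyte-like cells, against 1055 and 973 CPM in neuron-like cells (log2 fold change -1.61 ± 0.14 (SE), adjusted p = 2.93e-29), and Hsph1 had 58 and 63.6 CPM, against 262 and 295 CPM (log2 fold change -2.04 ± 0.20 (SE), adjusted p = 2.92e-23). Others called lower were Dnajc6 (-2.15), Dnajc5 (-1.90), Hspa4l (-1.82), Dnajb1 (-1.56), Hspa4 (-1.18), Dnaja1 (-1.03), Hsp90ab1 (-0.96), Dnajb6 (-0.55), Dnajb4 (-0.52) and Hspa8 (-0.41), in the mitochondrion Hspd1 (-1.14), Hspa9 (-0.75), Dnaja3 (-0.65) and Hspe1 (-0.57), and in the remainder Hspa12a (-2.89). Hspa1a, Hspa1b, Hspb1, Dnajc15 and Dnajc19 were not called (Hspa1a (-1.57), Hspa1b (-0.05), Hspb1 (1.99), Dnajc15 (-0.29) and Dnajc19 (-0.05)). Hspb6 had 1 and 1 UMIs against 210 and 255 in neuron-like cells, a ratio of pooled levels of 0.199 (95% counting interval 0.0240 to 0.722). In all 38 of 64 members were called, 6 higher and 32 lower, against 46.1% of all 13723 genes, 20.9% higher and 25.2% lower. Under the stricter cell filter, which left 39 and 35 astrocyte-like cells and put Dnaja3 at 0.40, 9 of 64 were called. Cells thinned to 3000 UMIs gave 12 of 58, and DESeq2 called 24 of 65. Over all genes these settings called 1982 of 13089, 2085 of 11825 and 3953 of 19473.

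Endothelial-like cells had 3 of the 4 small heat shock proteins tested called higher, against 26.3% of all genes. Hspb1 (HSP27), which is known to bind actin and to be phosphorylated under stress (ENSMUSG00000004951, chr5:135887919-135889563, plus strand), had 422 and 270.3 CPM in endothelial-like cells, against 1.62 and 1.23 CPM in neuron-like cells (log2 fold change 8.11 ± 0.27 (SE), adjusted p = 8.28e-38). Hspa12b (ENSMUSG00000074793, chr2:131127280-131146321, plus strand) had 107 and 69.3 CPM, against 2.43 and 2.72 CPM (log2 fold change 5.27 ± 0.29 (SE), adjusted p = 7.09e-26). Hspb8 had 28.7 and 18.8 CPM, against 5.21 and 3.95 CPM (log2 fold change 2.57 ± 0.40 (SE), adjusted p = 1.1e-07) and Hspa2 had 20.7 and 28.2 CPM, against 2.37 and 3.01 CPM (log2 fold change 3.40 ± 0.43 (SE), adjusted p = 2.65e-10). No sums overlapped.

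Hspb2 had 8 and 35 UMIs in endothelial-like cells and 0 and 2 in neuron-like cells, a ratio of pooled levels of 545 (95% counting interval 142 to 4647). The class also held markers of mural cells, the contractile cells around vessels: the 9 marker genes summed to 5614 and 4784 CPM with none at 0, against 7.12 and 13.04 CPM in neuron-like cells. Hemoglobin genes and Alas2, markers of red cells, summed to 52308 and 53423 CPM, and 17 and 21 cells of the class held 1% or more of their UMIs from hemoglobin. Without those cells 39 members were called, against 42 with them. Over all genes 7004 of 14108 were called without them and 7617 of 14152 with them. The part of mural cells in Hspb1, Hspb2 and Hspa12b was not tested.

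The inducible Hspa1a (ENSMUSG00000091971, chr17:34969190-34972156, minus strand) of endothelial-like cells had 33.4 and 15.3 CPM in endothelial-like cells, against 8.91 and 7.75 CPM in neuron-like cells (log2 fold change 1.70 ± 0.37 (SE), adjusted p = 8.03e-05), on 21 and 13 UMIs, and Hspa1b followed on 4 and 4 UMIs (2.11). Dnajc1 (2.28) and Dnajc3 (1.15) were higher under both scalings. Most other members were lower: Hsp90aa1 had 167 and 236 CPM, against 1055 and 973 CPM (log2 fold change -2.12 ± 0.19 (SE), adjusted p = 1.91e-15), and the lowest were Hspa4l (-2.69), Dnajc6 (-2.56), Hsph1 (-2.48), Hspa13 (-1.85) and Dnajb4 (-1.68). Hspa5 (-1.11) was lower too. Further genes called lower were Dnajc5 (-1.43), Hspe1 (-1.17), Hspa4 (-1.01), Hspd1 (-0.92), Hspa9 (-0.81), Hsp90b1 (-0.75), Dnaja3 (-0.72), Dnajb9 (-0.69), Dnajb1 (-0.60), Dnajc15 (-0.60), Dnaja1 (-0.56) and Hspa8 (-0.50). Not called were Hsp90ab1 (0.23), Dnajb6 (-0.43), Dnajb11 (0.34), Dnajc10 (-0.33) and Dnajc19 (0.34). In all 42 of 64 members were called, 13 higher and 29 lower, against 53.8% of all 14152 genes, 26.3% higher and 27.5% lower. DESeq2 called 27.

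**Figure D5:**
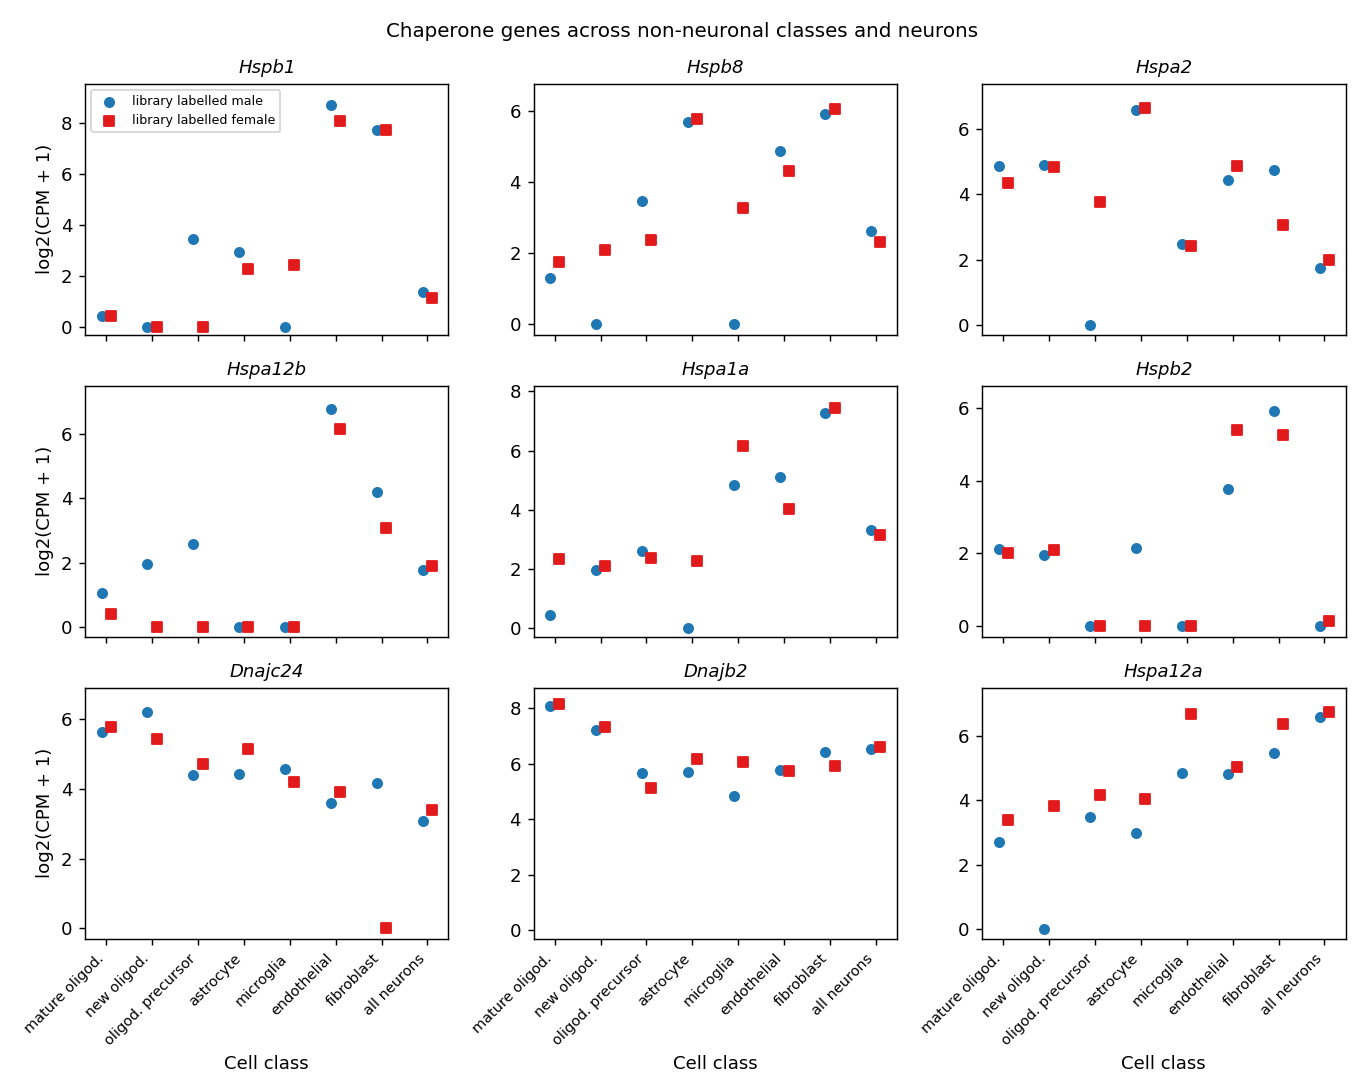
Level of 9 chaperone genes, as log2(CPM + 1) of summed UMIs, in 7 non-neuronal classes and in all neuron-like cells (right), 1 point per library (circle, labelled male; square, labelled female). Hspb1 and Hspa12b are highest in endothelial-like cells, Hspa2 in astrocyte-like cells, Hspa1a in fibroblast-like cells and Dnajb2 in mature oligodendrocyte-like cells.

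In microglia-like cells 4 members were called. Hspa1a had 6 and 16 UMIs (27.3 and 69.7 CPM), against 154 and 157 UMIs (8.91 and 7.75 CPM) in neuron-like cells (log2 fold change 2.76 ± 0.63 (SE), adjusted p = 0.000222), and 7 of the 16 lay in 1 cell. Hspb3 had 1 and 5 UMIs against 14 and 24 (log2 fold change 3.88 ± 1.30 (SE), adjusted p = 0.0279). Hsph1 had 63.8 and 131 CPM, against 262 and 295 CPM (log2 fold change -1.31 ± 0.40 (SE), adjusted p = 0.0144) and Dnajc6, the auxilin that uncoats clathrin vesicles, had 50.1 and 87.2 CPM, against 237 and 229 CPM (log2 fold change -1.52 ± 0.42 (SE), adjusted p = 0.00381). In these 4 genes, picked because they were called, the groups did not overlap, which adds no support to the calls.

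The libraries of this class were unlike. The 12 neuron markers summed to 2347 and 5617 CPM in microglia-like cells (9612 and 10265 CPM in neuron-like cells), none at 0, and the early response genes summed to 13414 and 2798 CPM. Their part in these calls was not tested. The remaining core genes were not called, with log2 fold changes between -1.22 (Hspa13) and 2.41 (Hspa1b), among them Hspa5 (0.42), Hsp90b1 (0.06), Hspa8 (0.32) and Hsp90aa1 (-0.86). In all 4 of 64 were called, 2 higher and 2 lower, against 12.5% of all 13615 genes, 8.97% higher and 3.50% lower. Of the 31 cytosolic and nuclear genes tested, 27 were not called. The same 4 calls held under both scalings, against 7.37% higher and 3.17% lower of all genes. DESeq2 called only Hspa1a and Dnajc6, against 1337 of 19539 genes. Cells thinned to 3000 UMIs gave 0 higher and 2 lower, against 469 and 216 of 11755 genes. The stricter cell filter gave 3 higher and 13 lower, against 1358 and 1853 of 13122 genes.

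The classes too small for a test had their own levels. Fibroblast-like cells had 154 and 171 CPM of Hspa1a (18 and 23 UMIs), the highest of any class, beside 214 and 215 CPM of Hspb1 and 59.8 and 66.7 CPM of Hspb8. Early response genes were at 9152 and 4709 CPM in them, and their part in the Hspa1a level was not tested. Dnajb2 was at 147 and 158 CPM in newly formed oligodendrocyte-like and 50.2 and 33.5 CPM in precursor-like cells, below the 266 and 286 CPM of mature ones. Dnajc24 was at 72.2 and 42.3 CPM in newly formed cells, and Hspa12a at 0 and 13 CPM.

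The libraries have 1 pool each, so they were set against each other without a test. The share of all genes past the ratio used below is not given. Over all kept cells no member met the rule for a difference, a ratio of 1.5 or more with the same direction in neuron-like and mature oligodendrocyte-like cells. Hspb2 passed the ratio alone, with 26 UMIs in the library labelled male and 53 in the library labelled female (ratio 0.581, 95% counting interval 0.349 to 0.945). Dnajb1, named after its values were seen, had 54.0 CPM against 75.2 CPM (ratio 0.718, interval 0.668 to 0.773), and in mature oligodendrocyte-like cells 20.97 CPM against 54.8 CPM (ratio 0.382, interval 0.278 to 0.520). The intervals cover counting error only. Hspa8 had 822 CPM in the library labelled male and 683 CPM in the library labelled female (ratio 1.20, interval 1.18 to 1.23).

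Genes that work with the members were read from fixed lists. In the list of 24 genes of reticulum folding and the unfolded protein response, 14 were called higher and 2 lower in Hcrt-high neurons, against 21.4% and 19.8% of all genes. Under both scalings 10 were higher and 2 lower, against 12.1% and 19.8%. Ero1l, an oxidase that makes disulfide bonds, had 116 and 111 CPM in Hcrt-high neurons, against 55.1 and 58.2 CPM in other excitatory neurons (log2 fold change 1.24 ± 0.13 (SE), adjusted p = 2.23e-21), the disulfide isomerases Pdia3 and P4hb were at 1.19 and 1.07, and the stress sensor Ern1 was at 1.09, called with TMM alone. In Pmch-high neurons 15 were higher and 1 lower, against 19.3% and 17.0% of all genes, and 11 and 1 under both scalings, against 10.7% and 17.0%. Manf, a secreted stress-response protein, had 275 and 292 CPM in Pmch-high neurons, against 118 and 135 CPM in other excitatory neurons (log2 fold change 1.43 ± 0.09 (SE), adjusted p = 1.3e-13), and Edem1, Ero1l and Pdia3 were at 1.27, 1.24 and 1.20. Median log2 fold changes of the list were 0.47 in Hcrt-high and 0.62 in Pmch-high neurons with TMM, and 0.22 and 0.36 with total-count scaling. Between the peptide neurons 2 were higher and 4 lower in Hcrt-high neurons, against 16.2% and 17.8% of all genes, the lower ones being Ero1lb (-1.25), Sdf2l1 (-1.13), Ppib (-0.69) and Manf (-0.62).

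Of the 22 heat shock factors and cochaperones, 21 were tested between the peptide neurons, and 8 were called higher and 1 lower in Hcrt-high neurons, against 16.2% and 17.8% of all genes. Stip1, which hands clients from HSP70 to HSP90, had 155 and 181 CPM in Hcrt-high neurons, against 97.6 and 84.8 CPM in Pmch-high neurons (log2 fold change 0.85 ± 0.14 (SE), adjusted p = 3.53e-09), Bag2 and Unc45a were higher (0.95 and 0.85), and Fkbp5 was the lower one (-1.24). Hsf2, a heat shock factor, was higher in Hcrt-high (1.37) and in Pmch-high neurons (0.74) than in other excitatory neurons, in Pmch-high neurons with TMM alone. In inhibitory neurons 1 of 21 of these genes was called, Bag1, which was lower (-0.11). The small heat shock protein Cryab, in this list, had 3602 and 3726 CPM in mature oligodendrocyte-like cells, against 24.6 and 30.7 CPM in neuron-like cells (log2 fold change 7.77 ± 0.12 (SE), adjusted p = 4.73e-52).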

How the data were processed

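The deposited files hold, per library, raw UMI counts per gene and cell barcode; per the submitters' processing notes, the authors used Cell Ranger 2.2.0 and the mm10 build, and the sources used here do not say whether counting used strand. Cells with 500 or more genes and at most 20% mitochondrial UMIs were kept (163 and 163 barcodes removed), and the highest Scrublet scores, at 0.8% per 1000 barcodes, were taken out as doublets (86 and 105). Scrublet's own threshold would have marked 56 and 27. Both libraries were clustered together in scanpy 1.11.5 (2000 variable genes without the chaperone genes, 30 components, 15 neighbours, resolution 1), and clusters were named "-like" by marker lists. 14 and 17 cells stayed unnamed, and 288 and 331 neuron-like cells fell in no tested neuron group.

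UMI counts were summed per library and group, since cells are not replicates. Each comparison was fitted over its 4 sums with edgeR 4.0.16 in R 4.3.3 (filterByExpr, TMM, library as block, Benjamini-Hochberg over all genes tested). P-values rest on 1 residual degree of freedom per gene plus the spread shared across genes, and on 2 pools of littermates. In both comparisons of Hcrt-high neurons, and for astrocyte-like and microglia-like cells, the fit gave all weight to the shared spread. SEs and p-values there do not measure a gene's own spread between the libraries. An SE is the absolute log2 fold change divided by the square root of the F statistic. The block is the library, because each library gives 1 sum of either group. On simulated counts the fit recovered 60% of 2-fold changes for Hcrt-high against other excitatory neurons and 6% for microglia-like cells against neuron-like cells. Intervals on ratios are 95% and cover counting error only. Alternatives were DESeq2 1.42.0, no filter on low counts, no block, thinning to 3000 UMIs, a stricter cell filter (1000 genes, 10% mitochondrial), no doublet removal, a peptide limit of 1%, each library alone and, chosen after seeing the data, total-count scaling, cells of 10000 UMIs or more and endothelial-like cells low in hemoglobin.

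Members, lists, markers and the genes named were chosen with earlier results of these data known. Named were 30 core genes and, per comparison, up to 6 called members with the largest fold change each way, provided that both libraries moved the same way and the group with more held at least 20 UMIs. Hspa12b in Pmch-high neurons, Hspb2 in mature oligodendrocyte-like cells and Hspb3 in microglia-like cells held fewer and are named outside this rule. Of other lists, up to 4 genes by size of fold change are named. Gene positions are GRCm38 (GENCODE M21, which matched 28416 of 28692 identifiers).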

Additional observations from a re-analysis of the deposited data

How the results depend on the processing

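Counts of called members moved by over 1.5 times as follows. With DESeq2 they were 0 for inhibitory neurons, 13 for Hcrt-high and 9 for Pmch-high against other excitatory neurons, 4 for Hcrt-high against Pmch-high neurons, 24 for astrocyte-like, 2 for microglia-like and 27 for endothelial-like cells. With cells thinned to 3000 UMIs they were 3, 13, 5 and 6 in the same neuron comparisons, 12 for astrocyte-like and 2 for microglia-like cells. Over all genes thinning gave 626 of 11359, 1567 of 9478, 580 of 9565 and 721 of 4362 in those neuron comparisons. In the order given above, DESeq2 called 272 of 18901, 1553 of 18002, 1374 of 18049 and 765 of 16121 genes between neuron groups. For astrocyte-like, microglia-like and endothelial-like cells it called 3953 of 19473, 1337 of 19539 and 4935 of 19630 genes. The stricter cell filter gave 3 for inhibitory neurons, 9 for astrocyte-like and 16 for microglia-like cells, against 977 of 12544, 1982 of 13089 and 3211 of 13122 genes. For inhibitory neurons, no filter on low counts gave 0, no replicate block gave 0 against 6 with the library as block. Keeping the peptide neurons gave 19 of 63, against 3017 of 13228 genes. Members past the ratio between the libraries were 1 over all cells, 0 after thinning, 0 in neuron-like and 2 in mature oligodendrocyte-like cells.

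Direction reversed in 14 cases. Keeping the peptide neurons gave -0.19 for Hsp90b1 and -0.18 for Dnajb9 in inhibitory neurons. Thinning gave 0.059 for Dnajc15 in Hcrt-high and -0.32 for Dnaja4 and 0.11 for Dnajc9 in Pmch-high neurons. Total-count scaling gave -0.17 for Hsp90aa1 and -0.00021 for Hspe1 in Pmch-high neurons, and -0.62 for Hspa8, -0.33 for Hsp90ab1, -0.44 for Dnajb11 and -0.28 for Dnajc3 in mature oligodendrocyte-like cells. The stricter filter gave -0.30 for Hspa5 in Hcrt-high against Pmch-high neurons, where it was called lower, and 0.018 for Hsp90b1 and 0.40 for Dnaja3 in astrocyte-like cells. The cause was not tested. Thinned and filtered sums hold fewer UMIs.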

Other observations

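The cytosolic chaperonin TRiC, the ring that folds actin and tubulin, was read from 7 of its 8 subunit genes. In Hcrt-high neurons 5 were called higher than in other excitatory neurons and none lower, against 21.4% and 19.8% of all genes, and 3 were higher under both scalings, against 12.1%. The median log2 fold change was 0.46 with TMM and 0.21 with total-count scaling. In Pmch-high neurons 4 were higher and none lower, against 19.3% and 17.0% of all genes, and 1 was higher under both scalings, against 10.7%, with medians of 0.43 and 0.16. The summed level was 1053 and 1006 CPM in Hcrt-high, 931 and 936 CPM in Pmch-high and 878 and 879 CPM in other excitatory neurons. Against neuron-like cells none was called higher in mature oligodendrocyte-like, astrocyte-like or endothelial-like cells, and 5, 6 and 4 were lower under both scalings, against 39.1%, 25.2% and 27.5% of all genes.

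Of 5 further genes of mitochondrial folding, Timm44, of the import motor, was lower in Hcrt-high (-0.65) and in Pmch-high neurons (-0.95) than in the other excitatory neurons that both comparisons share. Trap1, the mitochondrial HSP90, was higher in Hcrt-high than in Pmch-high neurons (0.92).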
